A study of Mus musculus with 9 samples.

Results

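The variable segments of the immunoglobulin genes were examined in RNA of mouse colon: the heavy chain segments (symbols beginning Ighv), the kappa light chain segments (Igkv) and the lambda light chain segments (Iglv). A segment was taken as a member when it reached at least 0.5 FPKM in at least 3 of the 9 libraries. FPKM, the unit as deposited, divide fragments by the length of the transcript and the size of the library. Of 348 variable segments among the 54491 rows of the table, 170 were members: 86 of 185 heavy, 81 of 160 kappa and 3 of 3 lambda segments. The members were chosen by the FPKM values that are described below, so their being detected is no finding. By the class given in the GENCODE M21 annotation, 169 of the 216 functional segments and 1 of the 130 pseudogenes (Ighv1-2) were members. Of the 178 segments left out, 117 were at 0 in every library, and together they held at most 1.85% of the summed variable segment FPKM of a library. Just inside the threshold, counted on the third highest library, lay Ighv8-4 (0.513 FPKM) and Ighv1-2 (0.564 FPKM), and just outside it lay Ighv2-4 (0.478 FPKM) and Ighv1-20 (0.456 FPKM). Ighv1-20 reached 51.3 FPKM in a single library, HFD replicate 2, and was left out all the same.

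The study kept C57BL/6 mice, which entered it at 6 weeks of age in 3 groups of 15, with tissue collected on postnatal day 98. The control group has no further treatment named in the labels. The second group received a high-fat diet (HFD). The third received the same diet and the gut bacterium Papillibacter cinnamivorans by gavage, that is through a tube into the stomach (HFD+Pc). Gavage is named only for the third group, so the bacterium and the procedure cannot be told apart. The libraries are control replicates 1, 2 and 3, HFD replicates 1, 2 and 4, and HFD+Pc replicates 1, 3 and 4, and values below follow that order. Nothing in the labels ties a library to a mouse of its own, so p-values reflect only how far libraries of 1 group scatter, which may be technical.

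An antibody is built of heavy and light chains. In each developing B cell, 1 variable segment of the heavy chain locus is cut and joined to a diversity and a joining segment, and 1 variable segment of a light chain locus to a joining segment. The chosen segment then stays with that cell and its daughters, and the end of the segment opens the third complementarity determining region, the loop that contacts antigen most directly. In the gut wall most immunoglobulin RNA comes from plasma cells that secrete IgA, so the mixture of segments in colon RNA is a mixture of the clones present, each weighted by the RNA of its cells. Read counts of germline segments carry neither the junction nor the mutations, so a share below is a share of RNA and not of cells or clones.

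The segments on which the results turn are shown by the last 90 bases of their germline transcript (GENCODE M21, GRCm38), 5′ to 3′. Capitals begin at the codon of the conserved cysteine that closes the framework. They mark that codon and the germline bases after it, where the third complementarity determining region begins. Not all of the marked bases need remain after joining. The heavy chain segments shown lie on the minus strand of chromosome 12: Ighv1-26 at chr12:114788372-114788805, Ighv1-80 at chr12:115912344-115912776, Ighv1-81 at chr12:115920279-115920712, Ighv1-78 at chr12:115868773-115869227 and Ighv14-4 at chr12:114176438-114176867. They are shown because the first 4 led a library's heavy chain RNA and the last had the smallest p.
Ighv1-26: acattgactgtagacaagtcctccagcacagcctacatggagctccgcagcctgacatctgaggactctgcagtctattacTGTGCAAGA
Ighv1-80: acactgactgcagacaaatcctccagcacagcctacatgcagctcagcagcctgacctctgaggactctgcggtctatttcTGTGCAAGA
Ighv1-81: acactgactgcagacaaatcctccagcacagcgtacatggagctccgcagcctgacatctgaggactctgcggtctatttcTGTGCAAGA
Ighv1-78: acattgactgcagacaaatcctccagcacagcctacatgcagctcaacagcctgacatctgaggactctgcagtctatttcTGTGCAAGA
Ighv14-4: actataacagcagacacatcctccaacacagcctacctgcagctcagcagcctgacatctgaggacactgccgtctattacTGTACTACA
The kappa segments shown lie on chromosome 6: Igkv1-117 at chr6:68121046-68121827, Igkv1-110 at chr6:68270485-68271267 and Igkv1-99 at chr6:68541644-68542422 on the plus strand, and Igkv10-96 at chr6:68631963-68632442 on the minus strand. Igkv1-117 and Igkv10-96 led libraries, and Igkv1-110 is the close relative of Igkv1-117. Igkv1-99 had the largest log2 difference of the members between HFD and control.
Igkv1-117: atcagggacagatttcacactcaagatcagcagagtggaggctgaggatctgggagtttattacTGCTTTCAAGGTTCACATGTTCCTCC
Igkv1-110: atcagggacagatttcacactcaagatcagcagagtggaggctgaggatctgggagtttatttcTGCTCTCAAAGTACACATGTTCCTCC
Igkv1-99: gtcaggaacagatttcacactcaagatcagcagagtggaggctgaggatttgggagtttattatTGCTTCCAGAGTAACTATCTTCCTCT
Igkv10-96: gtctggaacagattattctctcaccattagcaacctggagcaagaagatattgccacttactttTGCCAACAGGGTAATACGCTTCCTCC
The lambda segments lie on the minus strand of chromosome 16: Iglv1 at chr16:19085017-19085500, Iglv2 at chr16:19260401-19260859 and Iglv3 at chr16:19241207-19241690. All 3 are shown because their shares moved against each other.
Iglv1: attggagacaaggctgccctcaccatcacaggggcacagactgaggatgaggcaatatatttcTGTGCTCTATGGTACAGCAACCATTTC
Iglv2: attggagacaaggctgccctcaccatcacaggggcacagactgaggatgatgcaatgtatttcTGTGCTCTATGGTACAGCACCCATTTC
Iglv3: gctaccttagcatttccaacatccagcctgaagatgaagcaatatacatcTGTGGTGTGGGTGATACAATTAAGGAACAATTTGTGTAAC
Over the last 280 bases Iglv1 was 97.5% identical to Iglv2 and 51.0% identical to Iglv3. Igkv1-117 was 96.8% identical to Igkv1-110 and 84.3% identical to Igkv1-99. Reads of near-identical segments can be split or lost in counting. A nearest segment with at least 97% identity existed for 35 of the 170 members (19 heavy, 14 kappa and 2 lambda), and 1 of them, Ighv1-62-2, was identical to another segment (Ighv1-71). The values of these 35 are therefore uncertain as single segments. Ighv14-4, Ighv1-26, Ighv2-2, Igkv17-121, Iglv1 and Iglv2, all described below, are among them. The cysteine codon with a tyrosine codon 2 places before it was found near the end of 168 members, all but Ighv3-8 and Igkv6-20.

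Depth and tissue set limits on all comparisons. Multiplied by the annotated exonic length, the variable segment values were whole multiples of 1 fragment (within 0.01) in 1235 of 1235 values checked, which gave totals of about 13976916 to 18753728 fragments per library and the fragment counts used below. The 3 HFD libraries stood apart in genes that mark position along the gut. Of 6 such homeobox genes fixed for this purpose, HFD exceeded control in 3 and was below it in 2 (limma), their summed level was 242 to 264 FPKM against 42.4 to 84.4 in control and 48.6 to 61.5 in HFD+Pc, and Hoxd12 was at 0 in all 6 libraries outside HFD. Control replicate 1 lay apart from the other control libraries in the same genes, with Hoxa13 at 26.0 FPKM against 2.06 and 0.385, and in smooth muscle markers, with Des at 1176 FPKM against 242 and 160. The stretch of colon is not given. Stretch cannot be told apart from diet between HFD and control, nor from the gavage and its bacterium between HFD+Pc and HFD. All 11 B cell markers, among them Ms4a1, were higher in HFD than in control, with a summed level of 115 to 143 FPKM against 3.05 to 16.9 in control and 6.56 to 11.1 in HFD+Pc. Of 10 plasma cell markers, 7 were higher and 1, Sdc1, lower in HFD against control (limma), with sums of 940 to 1181, 197 to 297 and 300 to 554 FPKM in HFD, control and HFD+Pc. Most of that HFD sum was Jchain (1023, 799 and 846 FPKM). Of 8 epithelial markers, Cdx2, Krt20 and Vil1 were lower in HFD against control and 0 higher (limma; 0 at an unadjusted p below 0.05), with sums of 4026 to 4431, 4341 to 7854 and 4012 to 4980 FPKM. The part of these differences in the segment results was not tested.

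Variable segment RNA was far higher in HFD colon than in the other groups. The members summed to 147, 1286 and 737 FPKM in control, 12605, 6716 and 9117 in HFD and 523, 2695 and 1779 in HFD+Pc. The lowest HFD library held more than the highest of the other 6, while HFD+Pc and control overlapped. Group means were 723 ± 570, 9479 ± 2961 and 1666 ± 1091 FPKM (SD, n = 3), so the HFD mean was 13.1 times the control mean and 5.69 times the HFD+Pc mean, and the HFD+Pc mean 2.30 times the control mean. Without control replicate 2 the ratios to control became 21.45 and 3.77. Leaving out control replicate 1, the lowest at 147 FPKM, raises the control mean instead and makes both ratios smaller. A sum over chosen members carries no test here. In bulk RNA, fewer cells of a type and less RNA per cell cannot be told apart.

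All 3 loci took part. Heavy segments summed to 25.7, 390 and 221 FPKM in control, 4608, 2134 and 3631 in HFD and 160, 1076 and 579 in HFD+Pc, a ratio of HFD to control means of 16.3. Kappa segments had the ratio 11.8 and lambda segments 11.2. The balance between the light chains was stable: lambda made up 10.3, 5.51 and 10.7% of light chain variable FPKM in control, 9.13, 7.26 and 4.45% in HFD and 7.42, 11.1 and 7.29% in HFD+Pc, with overlapping groups. In control replicate 1 the whole repertoire rested on 934 fragments, of which 160 were heavy, 692 kappa and 82 lambda, against 86806 fragments in HFD replicate 1. Single segments of control replicate 1 are accordingly known with little precision.

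**Figure D1:**
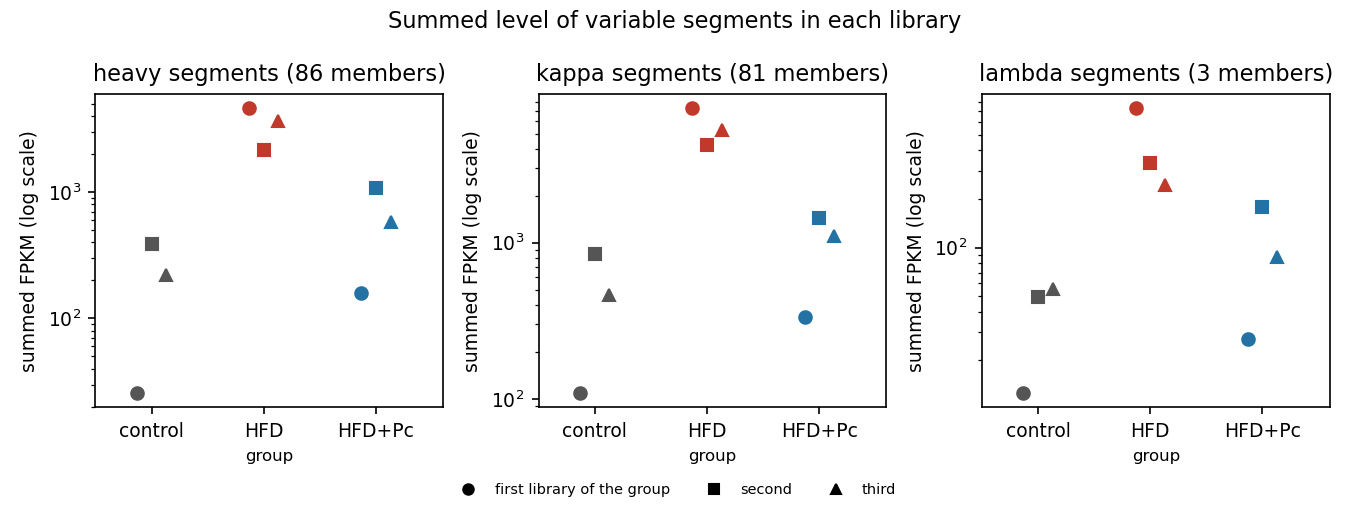
Summed FPKM of the heavy, kappa and lambda members on a log axis, 1 point per library, by group. The HFD libraries (red) lie above the other 6 in all 3 panels, and control replicate 1 is lowest in all 3, at 25.7 FPKM for heavy segments.

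Segment by segment, the comparison of HFD with control asks which variable segments differed with the diet. With limma on log2(FPKM + 1), which understates the change of low genes, 90 of the 170 members were higher in HFD at an adjusted p below 0.05 (44 heavy, 44 kappa and 2 lambda), beside 10.6% of the 17907 genes tested. None was lower, and 0 were lower at an unadjusted p below 0.05, beside 9.11% of all genes lower by the adjusted p. The groups did not overlap, with HFD higher, for 116 members, beside 21.9% of all genes. The median log2 difference of the members was 2.91, beside -0.00 for all genes tested, and 167 members had a difference above 0. The remaining 3 were Ighv1-34 (-0.75), Ighv13-2 (-0.04) and Igkv7-33 (-0.13), named here because they are so few. Since the threshold can be met through the HFD libraries alone, these counts describe the members and are no evidence beyond it. Only Igkv10-95 and Igkv4-62 reached it in no library outside HFD. Further members, among them Ighv14-4 and Ighv1-2, reached it in fewer than 3 libraries outside HFD, so their entry also depended on the HFD libraries. Among the 44 members at or above 0.5 FPKM in all 9 libraries, 31 were higher in HFD and 0 lower (limma; 39 and 0 at an unadjusted p below 0.05), with a median log2 difference of 3.71. Without HFD replicate 1, 59 members were higher.

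The 3 members with the smallest p came from different families. Ighv14-4 measured 0.335, 0.188 and 0.376 FPKM in control, 7.90, 5.08 and 5.86 in HFD and 0.612, 0.513 and 0.162 in HFD+Pc. It was a minor segment with closely spaced replicates, at 1 or 2 fragments in each control library. Its level in HFD exceeded all others (log2 difference to control 2.47, SE 0.18, limma adjusted p = 8.5e-05). Its share of heavy chain FPKM did not: 1.31, 0.0482 and 0.171% in control and 0.171, 0.238 and 0.161% in HFD, with overlap. Igkv6-25 measured 1.55, 2.95 and 7.65 FPKM in control, 260, 127 and 122 in HFD and 11.5, 18.6 and 14.5 in HFD+Pc. The 3 groups were apart from each other in FPKM, and HFD was higher than control by 5.18 on the log2 scale (SE 0.45, limma adjusted p = 0.00019). Its share of kappa FPKM was 1.42, 0.349 and 1.66% in control and 3.58, 3.00 and 2.32% in HFD, without overlap. In HFD+Pc the share was 3.42, 1.29 and 1.31%, overlapping both. Igkv1-99 measured 0, 2.28 and 2.99 FPKM in control, 409, 258 and 293 in HFD and 12.7, 56.5 and 51.9 in HFD+Pc. It had the largest log2 difference of the members called between HFD and control (7.06, SE 0.64, limma adjusted p = 0.00023), and its groups did not overlap in any comparison.

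The comparison of HFD+Pc with HFD asks what differed when the bacterium was given on the diet. It shares the HFD libraries with the comparison above, so the values of both are set side by side and their likeness is not read. Here 38 members were lower in HFD+Pc (limma adjusted p below 0.05; 17 heavy, 20 kappa and 1 lambda), beside 7.6% of all genes, and 83 were lower without overlap, beside 20.3%. No member was higher (limma; 0 at an unadjusted p below 0.05), beside 4.54% of all genes. The median log2 difference was -2.03, beside -0.01 for all genes. Of the 44 members at the threshold in every library, 13 were lower and 0 higher (limma; 31 and 0 at an unadjusted p below 0.05). The number of members called moved by more than 1.5 times when single libraries were left out: leaving out HFD replicate 1, 2 or 4 gave 11, 23 and 25, leaving out HFD+Pc replicate 1, 3 or 4 gave 11, 63 and 16, and leaving out control replicate 1 gave 58. Without HFD replicate 1, 1 of the 11 was higher, Igkv2-112 (named after its value was seen; log2 difference 1.25, limma adjusted p = 0.032), which HFD replicate 1 had at 10.9 FPKM and HFD replicates 2 and 4 at 0.927 and 0.475 FPKM.

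Ighv14-4 and Igkv6-25, with the values given above, again had the smallest p, and were lower in HFD+Pc by log2 differences of -2.34 (SE 0.18, limma adjusted p = 0.00013) and -3.36 (SE 0.45, limma adjusted p = 0.0018). Ighv1-58 measured 0.168, 0 and 0.376 FPKM in control, 25.1, 15.1 and 49.5 in HFD and 0.612, 4.62 and 2.11 in HFD+Pc. All 3 HFD libraries were above the other 6, and HFD+Pc was lower than HFD by a log2 difference of -3.19 (SE 0.49, limma adjusted p = 0.0038). These 3 calls held under all 17 alternatives run, as did those of Ighv14-4, Igkv6-25 and Igkv1-99 between HFD and control.

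Against control, HFD+Pc asks what remained different with diet and bacterium together. It shares libraries with both comparisons above. Only 3 members were higher, Igkv1-99, Iglv3 and Ighv2-6, beside 0.262% of all genes, and 0 were lower (limma; 30 higher and 0 lower at an unadjusted p below 0.05), beside 0.843%. Groups did not overlap for 26 members that were higher, beside 9.86% of all genes, and for 1 that was lower, beside 11.9%. The latter was Igkv4-86, named because it is the only one: 3.11, 5.06 and 7.34 FPKM in control, 79.1, 6.34 and 2.42 in HFD and 0.568, 0.476 and 1.51 in HFD+Pc. The median log2 difference was 0.85, beside -0.01 for all genes. Igkv1-99 differed by 3.88 (SE 0.64, limma adjusted p = 0.037) and Iglv3 by 3.20 (SE 0.56, limma adjusted p = 0.042). Ighv2-6 measured 0, 0.188 and 0.189 FPKM in control, 68.9, 66.1 and 21.9 in HFD and 3.27, 14.2 and 6.50 in HFD+Pc, and its groups were fully separated (log2 difference of HFD+Pc to control 2.81, SE 0.52, limma adjusted p = 0.045). None of the 3 was called without a filter on low values, with TPM scaling, after quantile normalization, in a fit of the 6 libraries alone or without control replicate 2, control replicate 3, HFD replicate 1, HFD replicate 2 or any single HFD+Pc replicate.

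Evenness was described on the share of each segment in the summed FPKM of its locus, which removes the total level from the measure. Indices of such shares still depend on the number of fragments counted, so a comparison at equal depth is given below. The effective number of segments is the exponential of the Shannon entropy of these shares: it equals the number of members if all are equal and 1 if a single segment holds everything. For the heavy chain it was 32.1, 30.8 and 37.1 in control, 36.0, 40.2 and 28.9 in HFD and 38.3, 42.8 and 35.7 in HFD+Pc, of 86 members. Means were 33.3 ± 3.30, 35.0 ± 5.69 and 38.9 ± 3.63 (SD, n = 3), and all groups overlapped. The 10 leading heavy segments held 54.4, 57.0 and 49.9% in control, 52.9, 48.4 and 61.7% in HFD and 49.8, 47.6 and 50.6% in HFD+Pc. Neither measure set the HFD libraries apart, although they held many times more segment RNA.

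For the kappa chain the effective number was 33.2, 28.7 and 36.4 in control, 40.2, 34.6 and 30.5 in HFD and 36.4, 43.0 and 36.0 in HFD+Pc, of 81 members. Means were 32.8 ± 3.88, 35.1 ± 4.89 and 38.5 ± 3.95, again with overlap throughout. Between 7 and 12 kappa segments were needed to reach 50% of the locus in a library, and between 7 and 11 heavy segments. An index over members gets no test here, and the differences between group means, 1.70 and 3.88 (heavy) and 2.33 and 3.37 (kappa) for HFD less control and HFD+Pc less HFD, were below the SD of at least 1 of the groups compared. Without HFD replicate 4, HFD+Pc less HFD was 0.83 (heavy) and 1.05 (kappa). HFD+Pc less control was 5.58 (heavy) and 5.70 (kappa), larger than the SDs, with ranges that still overlapped. Brought to equal depth, 160 heavy fragments per library, the means were 29.9 ± 3.43, 28.4 ± 4.46 and 32.2 ± 2.46, so that the difference of HFD to control changed sign to -1.53. At 692 kappa fragments the means were 30.8 ± 4.55, 33.3 ± 4.51 and 36.5 ± 3.67. At these depths HFD+Pc less control was 2.28 (heavy) and 5.68 (kappa).

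**Figure D2:**
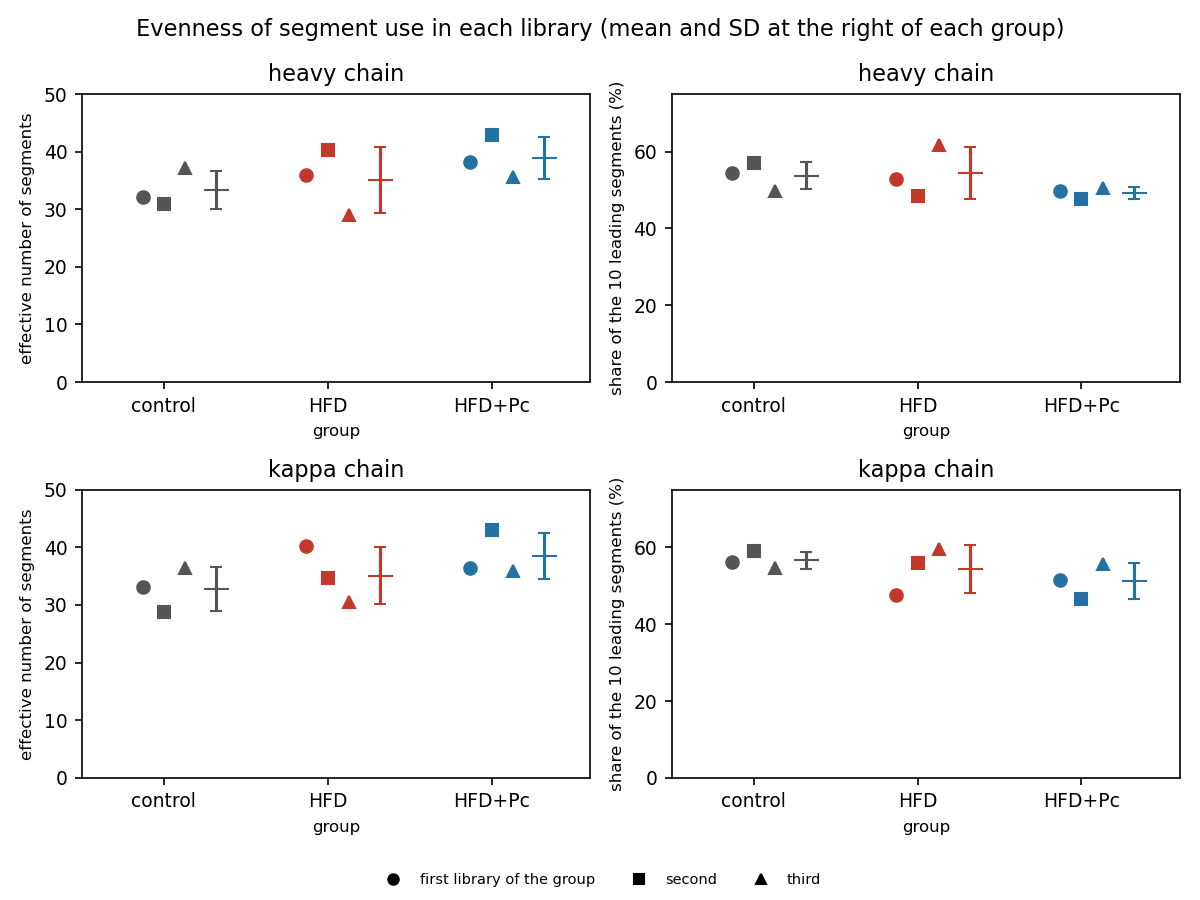
Effective number of segments (left) and share of the 10 leading segments in percent (right) for the heavy and the kappa chain, 1 point per library, with the group mean and SD to the right of each group. The groups overlap in all 4 panels. The lowest effective number, 28.7, is kappa in control replicate 2.

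The number of detected members followed depth. Of 86 heavy members 46, 70 and 68 had a fragment in control, 84, 85 and 83 in HFD and 58, 81 and 75 in HFD+Pc. At 160 fragments per library the expected number was 46, 42.2 and 43.6 in control, 43.3, 44.6 and 38.8 in HFD and 45.4, 48.4 and 44.1 in HFD+Pc, so the order of the groups in detected segments was gone at equal depth. HFD replicate 4 was lowest.

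Heavy chain use was led by family Ighv1, named by the number after the v, which held 63.2, 67.2 and 66.2% in control, 61.0, 60.2 and 80.1% in HFD and 55.2, 64.2 and 70.5% in HFD+Pc with its 44 members. The next families, Ighv9, Ighv5, Ighv3 and Ighv2, had means over all libraries of 6.26, 6.24, 5.84 and 4.72%. The segment with the highest share was Ighv1-26 in control replicates 1 and 3, Ighv1-80 in control replicate 2, HFD replicates 1 and 2 and HFD+Pc replicate 3, Ighv1-78 in HFD replicate 4, and Ighv1-81 in HFD+Pc replicates 1 and 4. No segment led a whole group.

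Ighv1-26 took 11.7, 8.72 and 10.2% of heavy chain FPKM in control, 2.59, 6.49 and 5.97% in HFD and 3.82, 2.37 and 1.87% in HFD+Pc. Every control share was above the other 6, although its FPKM was higher in HFD (log2 difference to control 3.37, SE 0.77, limma adjusted p = 0.017). In control replicate 1 the share rested on 18 of 160 fragments (exact 95% binomial interval 6.81 to 17.2%, which covers counting error only). Ighv1-81 took 7.18, 3.76 and 4.86% in control, 6.55, 2.002 and 2.70% in HFD and 8.29, 7.53 and 15.9% in HFD+Pc. The 3 HFD+Pc shares were the highest of all, with a mean of 10.6 ± 4.64% against 5.27 ± 1.75 and 3.75 ± 2.45%. Ighv1-80, at 3.26, 17.5 and 2.56%, 10.2, 6.95 and 10.4%, and 2.93, 9.72 and 6.02%, spread as widely within control as over all libraries. Ighv3-6 and Ighv1-9, the other segments among the 5 with the highest mean share, had means over all libraries of 4.77 and 3.69%.

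Some segments were high in 1 library only. Ighv1-78 held 13.9% of heavy chain FPKM in HFD replicate 4, 3318 fragments, against 0.419 and 1.13% in the other HFD libraries and at most 3.57% elsewhere. Ighv2-2 held 8.41% in control replicate 2 and at most 1.30% in any other library. Igkv9-124 held 9.41% of kappa FPKM in HFD+Pc replicate 1 and at most 3.37% elsewhere. Ighv1-34, Igkv12-98 and Igkv4-80 were also named for the ratio of their highest to their second highest library, which was 4.99, 3.14 and 2.85. HFD replicate 4, with Ighv1-78 in front, also had the lowest effective number of heavy segments, 28.9.

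**Figure D3:**
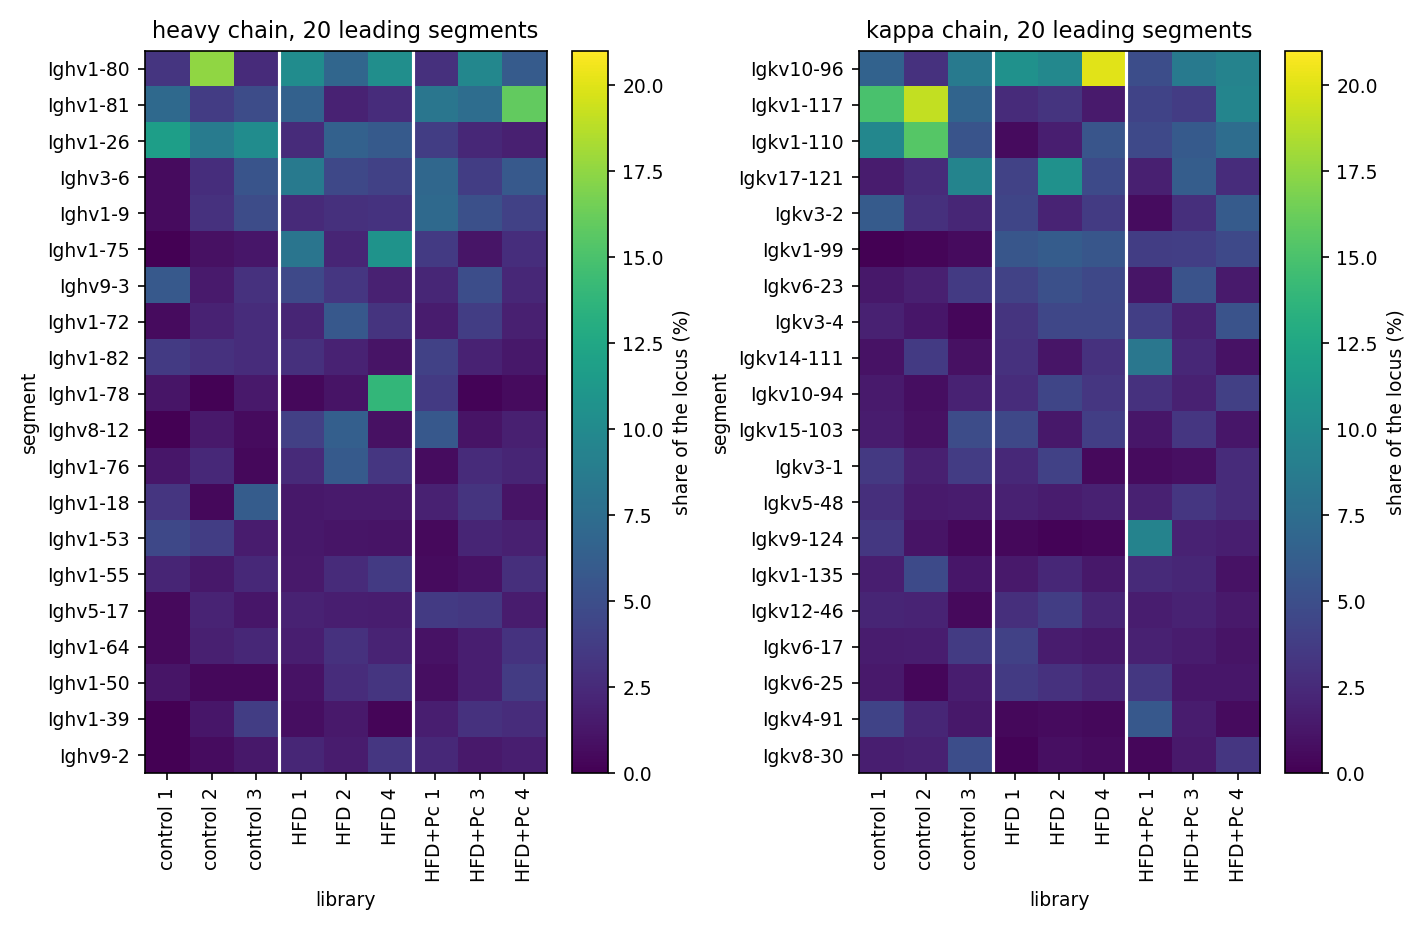
Share of the locus in percent (colour) for the 20 heavy and the 20 kappa segments with the highest mean share (rows) in each library (columns), with white lines between groups. Bright single cells are segments high in 1 library, such as Ighv1-78 in HFD replicate 4 (13.9%), and Igkv1-99 is dark in all 3 control columns and lighter in the other 6.

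Counted over the members of all 3 loci, the share in HFD was above every control share for 24 segments (14.1%) and below for 15 (8.82%). Of those 24, 8 were at 0 in every control library, where any fragment in HFD gives this order. HFD+Pc was above every HFD share for 16 (9.41%) and below for 9 (5.29%), and above every control share for 15 (8.82%) and below for 8 (4.71%). Shares of a locus add up to a fixed total, so the share of 1 segment falls when another rises.

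Among kappa segments, Igkv1-99 took 0, 0.269 and 0.648% of kappa FPKM in control, 5.63, 6.08 and 5.60% in HFD and 3.79, 3.92 and 4.67% in HFD+Pc. The 3 groups were separate, and within HFD and HFD+Pc the replicates lay close together (5.77 ± 0.270 and 4.13 ± 0.471%). The intervals of control and the other groups were apart: 0 of 692 kappa fragments in control replicate 1 allow a share of up to 0.434%, and 13 of 4868 in control replicate 2 give an exact 95% interval of 0.142 to 0.456%, and 17 of 2586 in control replicate 3 one of 0.383 to 1.05%. The lowest lower bound in the other 6 libraries was 3.02%, in HFD+Pc replicate 1.

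Igkv1-117 took 15.0, 19.1 and 6.81% in control, 2.56, 3.13 and 1.49% in HFD and 4.22, 3.69 and 9.55% in HFD+Pc. It led the kappa chain in control replicates 1 and 2, and its share was lower in each HFD library than in the other 6. Its FPKM, 16.3, 162 and 31.4 in control and 186, 133 and 78.3 in HFD, overlapped between the groups (log2 difference 1.48, SE 0.90, limma adjusted p = 0.27), while most of the locus was called higher. Igkv1-110, its close relative, took 9.70, 15.4 and 5.47% in control, 0.595, 1.78 and 5.496% in HFD and 4.67, 5.94 and 7.51% in HFD+Pc, with HFD replicate 4 inside the control range. Together with the other members of family Igkv1 they brought that family to 27.0, 39.9 and 14.5% in control and to 11.2, 14.6 and 14.5% in HFD.

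Igkv10-96 took 6.62, 2.97 and 8.54% in control, 10.6, 9.82 and 20.02% in HFD and 4.92, 8.54 and 9.43% in HFD+Pc. Its HFD shares were above the other 6, and it led the locus in HFD replicates 1 and 4 and in HFD+Pc replicate 3. Its FPKM exceeded control in HFD (by a log2 difference of 5.09, SE 0.82, limma adjusted p = 0.0037) and lower in HFD+Pc than in HFD (log2 difference -3.51, limma adjusted p = 0.025). Igkv17-121, the leader in control replicate 3 (9.47%) and HFD replicate 2 (10.6%), ranged from 1.64 to 10.6% with overlap of all groups. Igkv3-2 ranged from 0.732 to 6.05% in the same way.

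**Figure D4:**
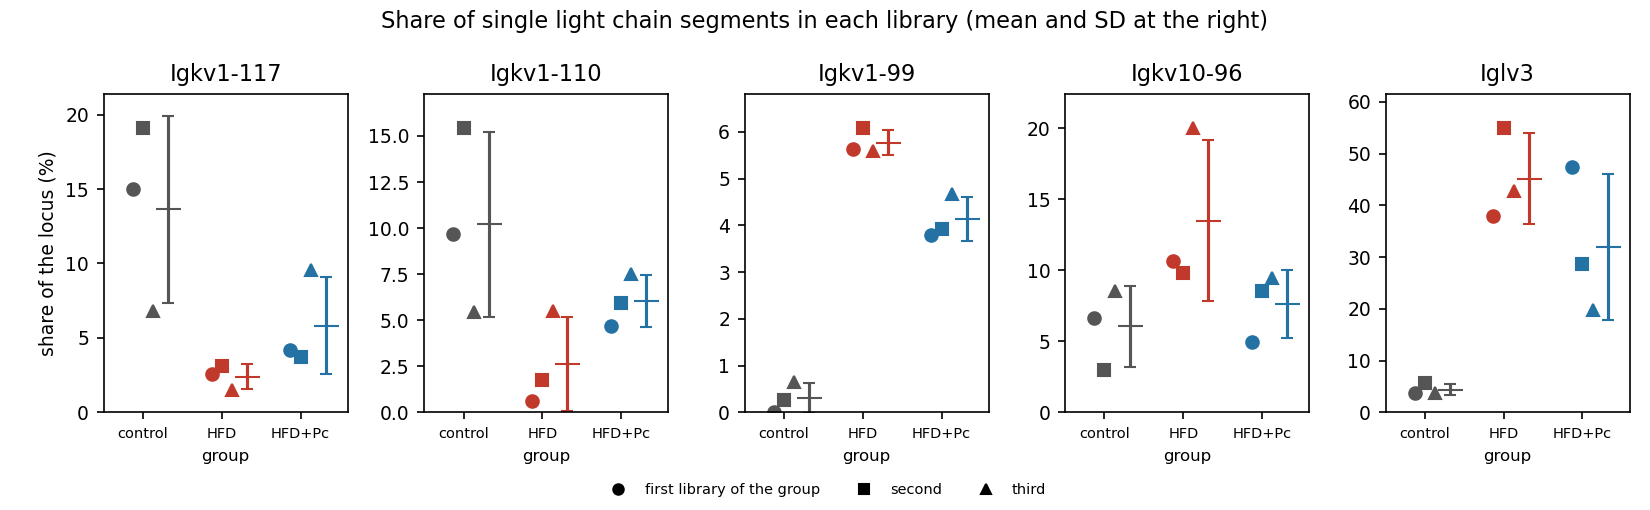
Share of the locus in percent for 4 kappa segments and Iglv3, 1 point per library, with the group mean and SD to the right of each group and a scale of its own in each panel. Igkv1-99 separates the 3 groups, Iglv3 is between 3.70 and 5.61% in control and between 19.8 and 54.9% in the other 6 libraries, and Igkv1-110 overlaps.

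The lambda locus of the mouse has 3 variable segments, so its mixture is simple to follow. Iglv1 took 74.5, 83.1 and 65.1% of lambda FPKM in control, 43.8, 41.8 and 54.7% in HFD and 38.8, 57.3 and 68.1% in HFD+Pc. Control lay above HFD without overlap, and HFD+Pc overlapped both. Iglv3, also called Vx, took 3.70, 5.61 and 3.78% in control, 37.8, 54.9 and 42.7% in HFD and 47.4, 28.8 and 19.8% in HFD+Pc. All 6 libraries from the diet groups were above control, with exact 95% intervals that did not reach those of control (highest upper bound 10.3%, from 3 of 82 fragments in control replicate 1, and lowest lower bound 16.4%).

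In FPKM, Iglv3 measured 0.463, 2.77 and 2.08 in control, 276, 183 and 104 in HFD and 12.8, 51.5 and 17.3 in HFD+Pc. The groups were separate in every comparison, and HFD was higher than control by 6.09 on the log2 scale (SE 0.56, limma adjusted p = 0.00025) and HFD+Pc lower than HFD by a log2 difference of -2.89 (SE 0.56, limma adjusted p = 0.011). Iglv1 was higher in HFD (log2 difference to control 2.86, SE 0.83, limma adjusted p = 0.043) and was not called in the other comparisons (limma adjusted p = 0.14 and 0.69). Iglv2, at 2.56 to 18.3% of the locus in HFD, was called in none (limma adjusted p = 0.35, 0.60 and 0.83). The effective number of lambda segments was 1.96, 1.75 and 2.15 in control. It was 2.83, 2.24 and 2.20 in HFD and 2.70, 2.59 and 2.31 in HFD+Pc. Each of the 6 diet libraries was above every control library, narrowly for HFD replicate 4 (2.20) over control replicate 3 (2.15). A higher index did not mean even use of all 3 segments: Iglv2 held 3.25 and 2.56% in HFD replicates 2 and 4.

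Constant regions of the lambda locus were read beside these segments. In the mouse locus Iglv2 and Iglv3 lie upstream of Iglc2, and Iglv1 lies upstream of Iglc3 and Iglc1. Iglc2 measured 21.5, 20.6 and 44.5 FPKM in control, 263, 158 and 94.6 in HFD and 39.0, 88.4 and 25.2 in HFD+Pc, with HFD above all others (log2 difference to control 2.501, limma adjusted p = 0.011). Iglc1 measured 20.1, 62.5 and 66.5 FPKM in control, 241, 116 and 141 in HFD and 19.1, 183 and 136 in HFD+Pc, and was not called (limma adjusted p = 0.14). Iglc3 measured 9.24, 9.05 and 3.36 FPKM in control, 42.1, 20.1 and 23.9 in HFD and 6.81, 3.58 and 10.6 in HFD+Pc, with HFD above the other 6 (log2 difference to control 1.89, limma adjusted p = 0.019). Constant regions on both sides were therefore higher in HFD, and a difference between them was not tested.

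For position, the segments of each locus were put in order from the joining segments, as annotated on GRCm38, and cut into 4 parts of 46 or 47 heavy and 40 kappa segments. The farthest part of the heavy locus, from Ighv8-6 to Ighv1-86, held 26.7, 44.9 and 28.2% in control, 47.4, 45.6 and 60.7% in HFD and 41.1, 40.9 and 46.7% in HFD+Pc. HFD lay above control without overlap, narrowly over control replicate 2. The part next to it, from Ighv1-14 to Ighv1-53, held 31.3, 20.05 and 32.5% in control and 14.4, 18.7 and 17.3% in HFD, again without overlap. In the kappa locus part 3, from Igkv13-71-1 to Igkv20-101-2, held 19.99, 11.4 and 20.98% in control, 30.4, 26.7 and 38.1% in HFD and 25.9, 28.2 and 26.5% in HFD+Pc. It contains Igkv1-99 and Igkv10-96, and all 6 diet libraries were above control. Part 4 of the kappa locus, with Igkv1-117 and Igkv1-110, held 41.5, 52.5 and 35.6% in control and 22.5, 32.2 and 28.3% in HFD. The parts nearest to the joining segments overlapped between HFD and control in both loci. A part counts again the shares of its segments given above, so its difference is no separate result. Parts without those leading segments were not compared, so a difference of the whole region was not tested.

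**Figure D5:**
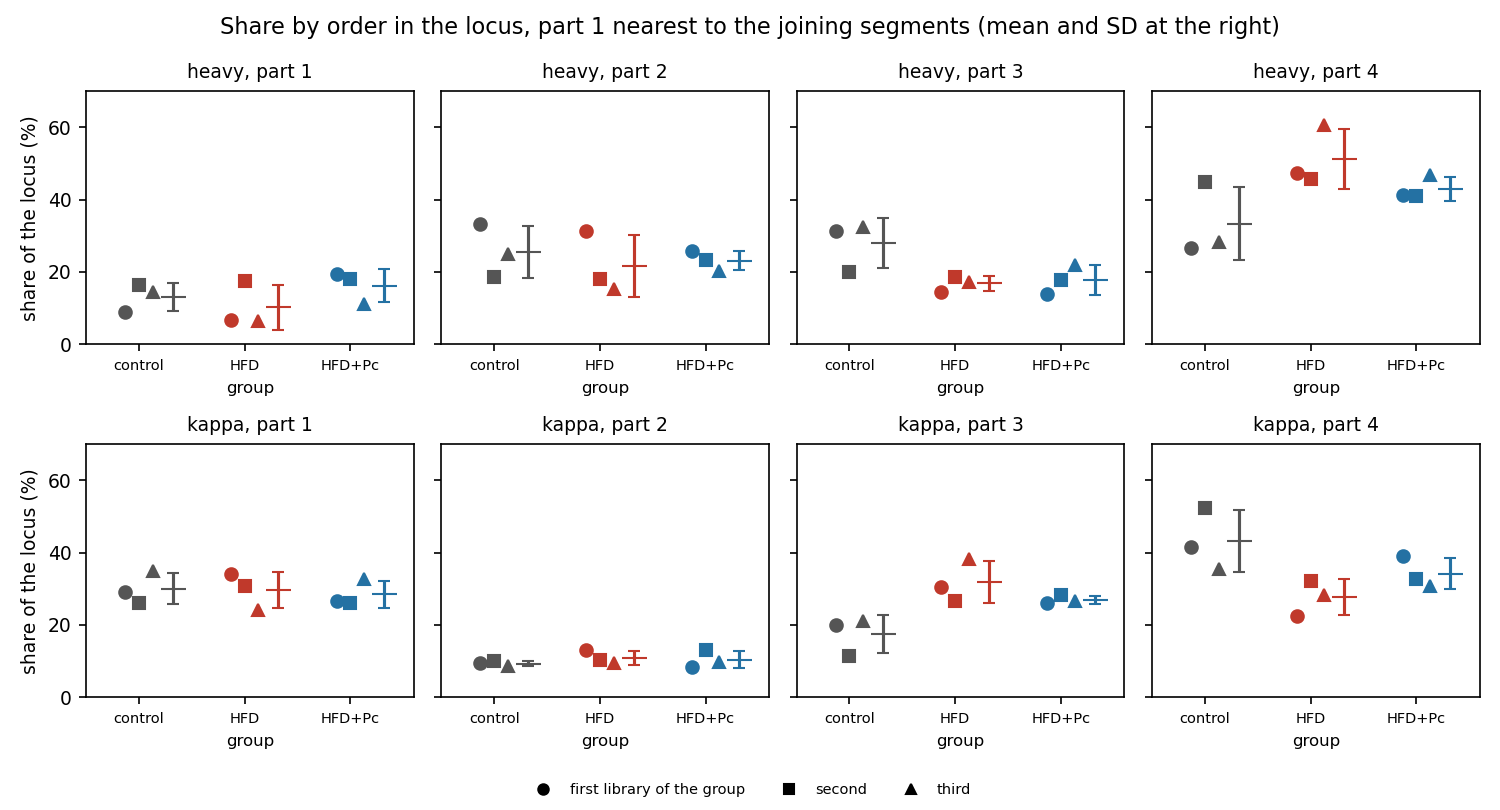
Share of the locus in percent held by each of 4 parts of the segments in order from the joining segments, for the heavy (top) and the kappa chain (bottom), 1 point per library, with group mean and SD. HFD lies above control in heavy part 4 and kappa part 3 and below it in heavy part 3 and kappa part 4.

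Likeness of 2 libraries was described by the shared percentage, the sum over segments of the smaller of the 2 shares. For the heavy chain its median was 51.7% within control (45.1 to 53.7%), 63.5% within HFD (63.5 to 64.9%) and 63.8% within HFD+Pc (61.0 to 69.2%). Between groups it was 52.7% for HFD and control (34.1 to 54.9%), 61.9% for HFD and HFD+Pc (52.2 to 68.9%) and 50.4% for HFD+Pc and control (39.0 to 59.4%). The median for HFD with HFD+Pc was thus close to those within these groups, and the median within control was close to that of control with HFD. For the kappa chain the medians were 59.1, 70.1 and 62.7% within control, HFD and HFD+Pc, and 53.4, 65.1 and 59.1% between HFD and control, HFD and HFD+Pc, and HFD+Pc and control. Low depth lowers the shared percentage. The Morisita index, which corrects for the number of fragments, had heavy chain medians of 0.592, 0.695 and 0.787 within control, HFD and HFD+Pc and 0.559, 0.721 and 0.594 between groups in the same order. For the kappa chain its medians were 0.739, 0.818 and 0.700 within groups and 0.530, 0.743 and 0.683 between groups. The kappa median for HFD with control was thus the lowest. Its range, 0.353 to 0.793, overlapped that within control, 0.633 to 0.906. These values use the same libraries many times and carry no test.

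The constant regions give the chain classes that carry these segments. Of 14 tested genes of the constant region list, which also holds Jchain and Pigr, the joining chain and the epithelial transporter of secreted IgA, HFD exceeded control in 13 and was below it in 0 (limma), with a median log2 difference of 2.70. In HFD+Pc 12 were lower than in HFD and 0 higher, and 0 differed from control in either direction (limma; 1 higher and 0 lower at an unadjusted p below 0.05). Igha made up 81.5, 95.6 and 94.4% of heavy constant FPKM in control, 75.8, 78.3 and 83.9% in HFD and 93.0, 92.4 and 94.7% in HFD+Pc. Ighg2c, an IgG class, made up 7.79, 1.85 and 2.15% in control, 14.0, 15.7 and 10.8% in HFD and 3.3998, 4.95 and 2.57% in HFD+Pc, highest in the 3 HFD libraries.

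Variable RNA was also higher per constant RNA in HFD. Heavy variable FPKM per heavy constant FPKM was 0.0697, 0.376 and 0.368 in control, 0.819, 0.528 and 0.870 in HFD and 0.259, 0.755 and 0.422 in HFD+Pc. HFD lay above control without overlap and overlapped HFD+Pc. The kappa ratio was 0.0909, 0.235 and 0.245 in control, 0.387, 0.299 and 0.312 in HFD and 0.189, 0.265 and 0.190 in HFD+Pc, with HFD above the other 6. The lambda ratio was 0.246, 0.536 and 0.481, then 1.34, 1.13 and 0.940, then 0.415, 0.652 and 0.510, also with HFD highest. Control replicate 1 was lowest in all 3 loci. Ratios of levels per length between genes depend on the annotated lengths, which cancel between libraries only where the mix of summed genes is the same. The mix of segments and of heavy constant regions differed between libraries, as given above.

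Genes that cut, join and mutate variable segments, and factors of early B cells, were taken as the pathway list. Rag1, a subunit of the recombinase, and Igll1, a surrogate light chain of pre-B cells, were listed at 0 in every library, Rag2 reached at most 0.0418 FPKM and Dntt, which adds bases at the junctions, at most 0.146 FPKM. Of 19 tested genes of the 25, HFD exceeded control in 7 and was below it in 0 (limma), 6 were lower and 0 higher in HFD+Pc than in HFD, and 0 differed between HFD+Pc and control (limma; 1 higher and 1 lower at an unadjusted p below 0.05). Pou2af1, the B cell coactivator of octamer factors that act at variable segment promoters, was at 31.4, 21.4 and 22.3 FPKM in HFD and between 1.40 and 5.13 FPKM in the other libraries. Of the 5 listed genes of end joining, which all cells use, Dclre1c, the nuclease that opens the hairpin ends, was higher in HFD than in control (log2 difference 0.69, limma adjusted p = 0.017). Prkdc, Lig4, Xrcc4 and Nhej1 were not called (limma adjusted p = 0.098, 0.46, 0.32 and 0.56), and none of the 5 was called between HFD+Pc and HFD (limma; Lig4 higher and Dclre1c and Xrcc4 lower at an unadjusted p below 0.05).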

How the data were processed

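RNA of colon was sequenced in 9 libraries, 3 per group. The values are FPKM, deposited by the authors in 1 table of all genes; alignment with HISAT2 2.0.5 to GRCm39 is named in the submitters' processing notes, while no source used here gives the counting tool or how it treated reads shared by near-identical segments. Library totals of 13976916 to 18753728 fragments were recovered from the steps of the values and lengths of GENCODE M21, and variable segments held 951 to 86940 fragments per library. Samples were grouped by their treatment label.

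The members and gene lists were chosen with earlier results of these data known. Genes at 0.5 FPKM or more in at least 3 libraries (17907) were fitted together with limma 3.58.1 (R 4.3.3) on log2(FPKM + 1) with a variance trend, and p-values were adjusted over all of them by Benjamini-Hochberg at 0.05. A count model was not used because FPKM are not counts. Shares, effective numbers and exact 95% binomial intervals were computed in Python 3.11.15 with scipy 1.17.1. Intervals and the limit that a count of 0 allows (3 counts) cover counting error only. The scripts were tested on simulated data.

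Named are, by a written rule, the 5 heavy and 5 kappa segments with the highest mean share and all lambda members, the 3 smallest p per comparison and direction, each library's leading segments, the 3 segments per locus highest in 1 library against the next (mean share at least 0.5%), the segments at the threshold, and the listed pathway genes, of which 1 is not reported here. Alternatives were the pseudocount, the filter, other scalings, limma without a trend, fits of 6 libraries, a replicate block, other indices and leaving out each library. Alternatives for the summed level were added after seeing the data.

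Sequences and coordinates are those of GRCm38 and were not converted to GRCm39.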

Additional observations from a re-analysis of the deposited data

How the results depend on the processing

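Between HFD and control, 59 to 93 members were called when single libraries were left out, and 71 to 105 under the other alternatives. Between HFD+Pc and HFD the count was 11 to 63 with single libraries left out, 21 with a pseudocount of 0.1 and 21 with no filter on low values. Between HFD+Pc and control it was 0 to 3 with single libraries left out, and 0 with no filter, TPM scaling, quantile normalization, the 6 libraries alone or the replicate block. With the replicate number as a block, 76, 34 and 0 members were called in the 3 comparisons. Same-numbered libraries share only a number: the correlations of their deviations from the group means ran from -0.156 to 0.187. TPM scaling moved the median log2 difference of all genes to 0.24 (HFD against control) and -0.20 (HFD+Pc against HFD), and the share of higher among called genes from 53.8 to 78.2% and from 37.4 to 25.3%. Scaling without immunoglobulin and mitochondrial genes moved the medians to 0.17 (HFD against control, 77.1% higher) and 0.14 (HFD+Pc against control, 76.1% against 23.7%). The causes were not tested. Evenness differences moved by less than 1 SD, but that left room for sign and size: HFD less control turned to -0.88 (heavy, without HFD replicate 2) and -0.23 (kappa, without HFD replicate 1). HFD+Pc less HFD went from 3.88 to 0.83 and 1.92 (heavy, without HFD replicate 4 or HFD+Pc replicate 3), and from 3.37 to 1.05 and 1.10 (kappa, without the same libraries) and 0.15 (kappa, without the leading segment). In control replicate 1, 934 fragments limit every share.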

Other observations

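Variable segments of the T cell receptor, read in the same way, gave little RNA: 11 of 170 reached 0.5 FPKM in at least 3 libraries. Over all of them the sums were 4.47, 12.3 and 9.78 FPKM in control, 21.9, 26.8 and 17.4 in HFD and 10.3, 12.8 and 11.2 in HFD+Pc, with HFD above the other 6 libraries.

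A few heavy segments outside the rule for naming were picked after their values were seen. Ighv1-75 took 0, 0.907 and 1.28% of heavy chain FPKM in control and 8.13, 2.19 and 10.8% in HFD. Ighv1-53 went the other way, with 4.57, 3.85 and 1.62% in control and 1.38, 1.22 and 1.13% in HFD.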
